A study of Mus musculus with 19 samples.

Results

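The myosin heavy and light chain isoform genes of the mouse heart were followed after birth in PDK1 conditional knockout (cKO) mice and in wild-type (WT) mice. They were the 10 genes Myh6, Myh7, Myh7b, Myh10, Myl1, Myl2, Myl3, Myl4, Myl7 and Mylpf, chosen by gene name from a table of 56066 genes, and all 10 passed the filter on low values. Messenger RNA from hearts had been sequenced, and levels were in TPM, in which each gene's share is divided by its length, so that levels of different genes can be compared. The groups were PDK1 cKO at postnatal day 7 (P7, 3 libraries), WT at P7 (5 libraries), PDK1 cKO at P21 (3 libraries), WT at P21 (4 libraries) and WT at P1 (3 libraries). The labels name the age P1 where the design text of the series has P0. Neither gives the promoter that drove the Cre, the cells it acted in or the allele of the controls, and PDK1 can stand for the product of Pdpk1 or of Pdk1. Pdpk1 was at 7.95 to 8.09 TPM in P7 cKO against 7.96 to 11.9 TPM in P7 WT, and at 4.95 to 5.55 TPM in P21 cKO against 6.17 to 7.65 TPM in P21 WT. Pdk1 was at 36.9 to 40.2 TPM in P7 cKO against 36.1 to 44.7 TPM in P7 WT, and at 31.6 to 37.7 TPM in P21 cKO against 24.3 to 29.4 TPM in P21 WT. A level over a whole gene, from all cells of the heart, does not show a deletion of part of it, so neither gene checks the genotype labels closely. One further P21 library, number 63, entered no group, because its genotype label reads cKO while its title lacks the KO of the other cKO titles and the authors' column of P21 WT means averages it with WT libraries 57 and 60. Nothing states that each library was a separate animal, so p-values measure the spread between libraries. TPM carry no record of depth, so depth is unknown and counting error could not be given. Between 12422 and 13797 genes reached 1 TPM in a library.

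A sarcomeric myosin molecule holds 2 heavy chains, each with a motor head, and each heavy chain binds 1 essential and 1 regulatory light chain at its neck. Heart muscle chooses among isoforms of all of these parts. In the mouse, the ventricle is known for replacing the slow heavy chain of Myh7 with the fast heavy chain of Myh6 around birth, and atrial and ventricular muscle keep different light chains. The introns of the heavy chain genes also carry microRNAs, and the non-muscle heavy chain of Myh10 serves cell shape and division instead of the sarcomere.

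Myh6 and Myh7 lie next to each other on the minus strand of chromosome 14 (mm10, Myh6 at chr14:54941921-54966927 and Myh7 at chr14:54970684-54994626), and their messenger RNAs are alike enough that short reads can match both. The transcripts that have the gene lengths in the authors' table were 91.7% identical over 5805 aligned coding bases. Of all stretches of 50 bases in the Myh6 transcript 23.0% also occur in the Myh7 transcript, and 11.6% of all stretches of 100 bases do. Seen from Myh7 the shares were 22.6% and 11.4%. Of the 90 ordered pairs among the 10 genes, only these 2 shared any such stretch. How the authors' counting divided reads between the 2 genes is not given in the sources used here, so the level of each is uncertain to that extent. The longest identical run was 245 bases, spread over exons 30 and 31 of the 39 exons of Myh6 (chr14:54948327-54948725, an intron included) and exons 32 and 33 of the 41 exons of Myh7 (chr14:54974947-54975347). A read wholly within it matches both transcripts equally by its own bases. The coding window of 60 bases with the most differences, 24, lies in exon 25 of Myh6 (chr14:54952277-54952336) and exon 27 of Myh7 (chr14:54980352-54980411), and capitals mark the bases that differ. The sequences are from GENCODE M21 transcripts, 5′ to 3′ on the minus strand.
Identical run of Myh6 and Myh7: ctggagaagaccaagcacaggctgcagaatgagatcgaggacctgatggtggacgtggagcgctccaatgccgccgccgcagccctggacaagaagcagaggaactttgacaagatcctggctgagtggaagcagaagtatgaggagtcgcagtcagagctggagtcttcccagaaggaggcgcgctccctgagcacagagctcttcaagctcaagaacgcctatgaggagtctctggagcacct
Myh6 window: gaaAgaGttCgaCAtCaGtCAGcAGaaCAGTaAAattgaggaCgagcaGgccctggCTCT
Myh7 window: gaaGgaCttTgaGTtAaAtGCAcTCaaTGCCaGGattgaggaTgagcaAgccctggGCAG

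The 3 cardiac heavy chain genes each host a microRNA in an intron, and these microRNAs form the family known for the balance of Myh6 and Myh7. Their mature sequences, from RefSeq on GRCm38.p6, show that the microRNAs hosted by Myh6 and Myh7 have the same seed, bases 2 to 8 in capitals, while the seed of the one hosted by Myh7b differs in its last base.
miR-208a-3p, hosted by Myh6: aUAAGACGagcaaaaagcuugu
miR-208b-3p, hosted by Myh7: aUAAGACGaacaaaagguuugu
miR-499-5p, hosted by Myh7b: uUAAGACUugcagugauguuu
The genes Mir208a, Mir208b and Mir499 were listed at 0 TPM in all 18 grouped libraries, so the data speak of their hosts alone.

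Heart muscle markers were abundant in every group. The summed level of 8 cardiomyocyte markers was 30694 to 32842 TPM in P21 cKO, 29828 to 33201 TPM in P21 WT, 30357 to 31819 TPM in P7 cKO, 27755 to 31285 TPM in P7 WT and 31632 to 33702 TPM in P1 WT. The skeletal heavy chain gene Myh4 was at 0.02 TPM or less and Myh1 at 0.11 TPM or less in every library. Titles had 2 styles: the 3 P1, 2 of the P7 WT and 2 of the P21 WT titles hold a letter code, and all others are plain numbers, as all cKO titles are. The code differs with age, H at P1, heart at P7 and B6 at P21, and the titles do not say what it stands for. The P21 WT group thus joins 2 B6 libraries to 2 of the plain-number style, which holds every cKO library. The title style was a term of the fit, with all letter codes taken as 1 style. Tests were limma on log2(TPM + 1) over 14812 genes, where the added 1 shrinks the changes of low genes, and a gene passed at an adjusted p under 0.05. The median gene of all tested moved by 0.22 (log2) between P21 cKO and P21 WT, by -0.47 between P21 WT and P7 WT, by -0.48 between P21 WT and P1 WT, by -0.24 between P21 cKO and P7 cKO and by 0.24 in the difference of the P21 and P7 cKO effects. In those comparisons a change relative to the median gene is given beside the change itself, and calls rest on the unshifted change. In bulk tissue, fewer cells of a type and less RNA per cell cannot be told apart.

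At P7, no myosin gene passed the limma test between cKO and WT hearts: 0 of the 10 were called, where 0.0203% of all genes were, and 0 had an unadjusted p under 0.05, as 494 of all genes did. Their median change was -0.05, against -0.02 for all genes. Libraries of the 2 groups overlapped for each of the 10.

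By P21, RNA of the less abundant heavy chain genes Myh10 and Myh7b was higher in cKO than in WT hearts, and that of the light chain gene Myl1 was lower. These were 2 genes higher, where 19.5% of all genes were, and 1 lower, where 1.77% were. The most abundant genes, Myh6, Myh7, Myl2 and Myl3, each lay slightly above WT in all cKO libraries without passing, and after median-ratio scaling their changes were -0.22, -0.26, -0.12 and -0.18. With them, 6 of the 10 genes had every P21 cKO library above every P21 WT library, where 28.5% of all genes did, and 1 had every cKO library below, where 3.07% did. The median change of the 10 genes was 0.06, against 0.22 for all genes. The cKO effects at P7 and P21 were compared directly in the same fit. They differed for 1 gene upward, Myh10, where 7.04% of all genes did, and for 1 gene downward, Myl1, where 0.52% did.

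Many of the 10 genes were called between ages in WT hearts, as were many of all genes. From P1 to P7, Myh7, Myl1, Myl4 and Mylpf fell and Myh6 rose in WT hearts, 4 lower where 14.7% of all genes were, and 1 higher where 13.8% were. Between P21 WT and P7 WT 4 genes were lower, where 64.4% of all genes were, and 2 were higher, where 8.1% were. Between P21 WT and P1 WT 6 were lower, where 57.1% of all genes were, and 1 was higher, where 11% were. In cKO hearts 3 genes were lower at P21 than at P7, where 39% of all genes were, and 0 higher, where 9.36% were. Myl7 passed in none of the 7 contrasts. The WT and cKO comparisons of ages share libraries with the comparisons of genotypes, so their values stand side by side and not as independent results.

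**Figure D1:**
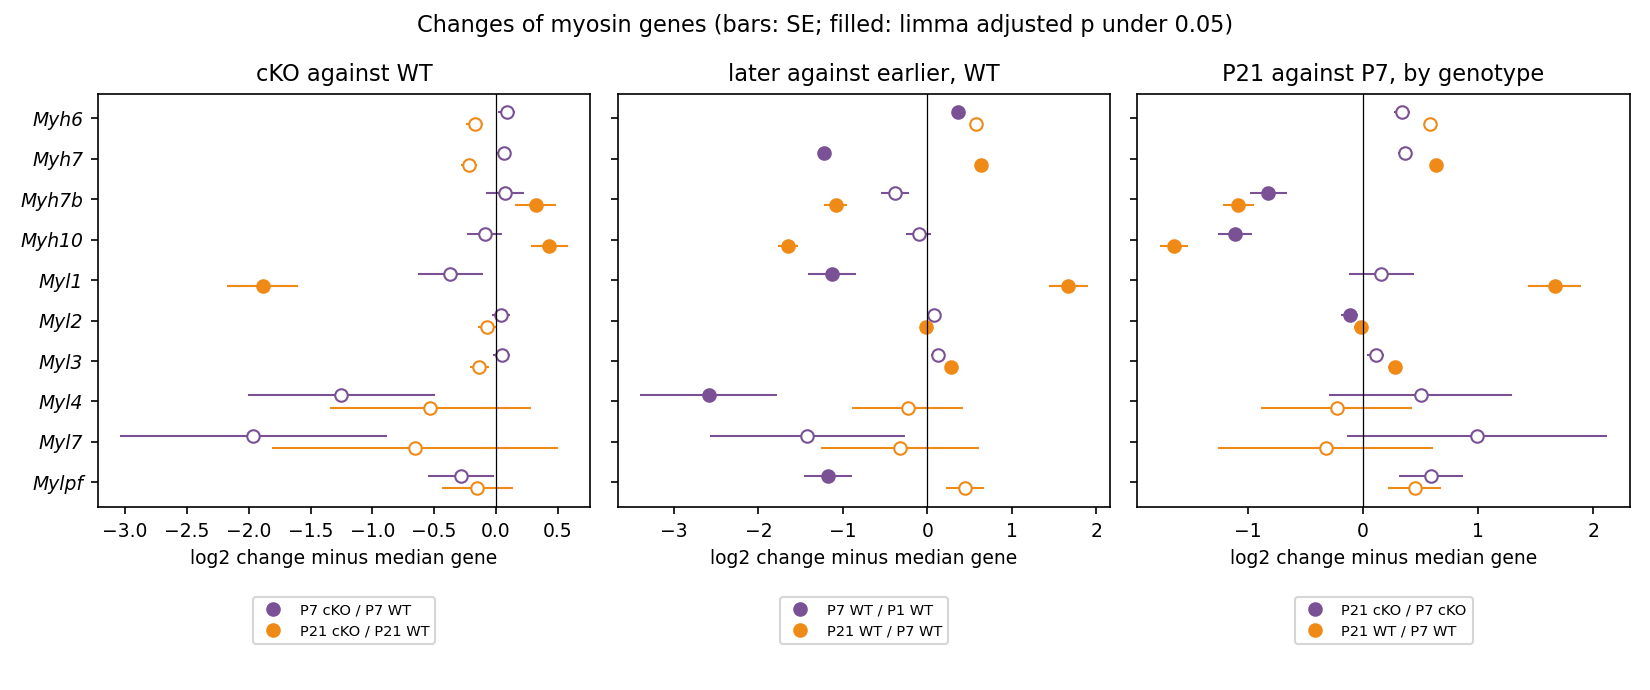
Log2 changes of the 10 genes minus the median change of all 14812 genes (horizontal axis), with bars for the SE and filled points for genes that passed at a limma adjusted p under 0.05 on the unshifted change. Left, cKO against WT, where Myl1 lies at -1.89 at P21 and Myh10 at 0.43; middle, later against earlier ages in WT, where Myl4 lies at -2.59 from P1 to P7; right, P21 against P7 in each genotype, where Myl1 lies at 1.67 in WT and at 0.16 in cKO.

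Myh6, the alpha heavy chain with the fast motor (ENSMUSG00000040752), and Myh7, the beta heavy chain with the slow motor (ENSMUSG00000053093), were the dominant heavy chain genes in all groups. Myh6 was at 4997, 5612 and 5806 TPM in the P1 WT libraries, at 6799, 6691, 8652, 7737 and 7830.3 TPM in the P7 WT libraries and at 7841, 7845, 8026 and 8367 TPM in the P21 WT libraries. Every P7 and P21 library lay above every P1 library, and the P7 and P21 libraries overlapped. Between P7 WT and P1 WT Myh6 rose by 0.36 ± 0.07 on the log2 scale (SE; limma adjusted p = 0.00175), a call lost within the letter-coded libraries (0.30, adjusted p = 0.104) and on quantile-normalized values (0.10, adjusted p = 0.347). Between P21 WT and P1 WT it was 0.47 ± 0.07 (limma adjusted p = 2.78e-05; relative to the median gene 0.95), and -0.0014 after quantile normalization.

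Myh7 was at 7676, 8707 and 8932 TPM in P1 WT, at 3459, 3493, 4451, 4147 and 4131 TPM in P7 WT and at 4150.2, 4136, 4578 and 4414 TPM in P21 WT. The 3 P1 libraries stood apart above all others. Myh7 fell by 1.23 on the log2 scale in P7 WT against P1 WT (SE 0.06; limma adjusted p = 5.3e-08) and by 1.07 in P21 WT against P1 WT (adjusted p = 1.52e-09), which was -0.59 relative to the median gene. Between P21 WT and P7 WT, whose libraries overlapped, it was called higher by a small change of 0.16 ± 0.05 (limma adjusted p = 0.0113; relative to the median gene 0.63). That call passed in 5 of 9 other settings. It was lost within the plain-number libraries (0.08), after quantile normalization (0.03), with no filter and with no title style term (0.14). Means in WT were 3936 ± 439 TPM (SD, n = 5) at P7 and 4319.7 ± 215 TPM (n = 4) at P21.

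In cKO hearts both genes stayed near WT. At P7, Myh6 was at 8646, 7907 and 8168 TPM in cKO, within the range of P7 WT, and Myh7 at 4452, 4141 and 4246 TPM, overlapping WT as well. At P21, Myh6 was at 8946, 8933 and 8451 TPM in cKO against 7841 to 8367 TPM in WT, and Myh7 at 4707, 4638 and 4600.2 TPM in cKO against 4136 to 4578 TPM in WT. Each P21 cKO library lay above each P21 WT library for both genes, by 1.09-fold of the means for Myh6 and 1.08-fold for Myh7. With title style in the model the log2 changes were 0.05 ± 0.07 and 0.00 ± 0.06 (limma adjusted p = 0.662 and 0.984), and relative to the median gene -0.17 and -0.22. Within the plain-number libraries alone they were 0.10 and 0.05, and neither passed.

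**Figure D2:**
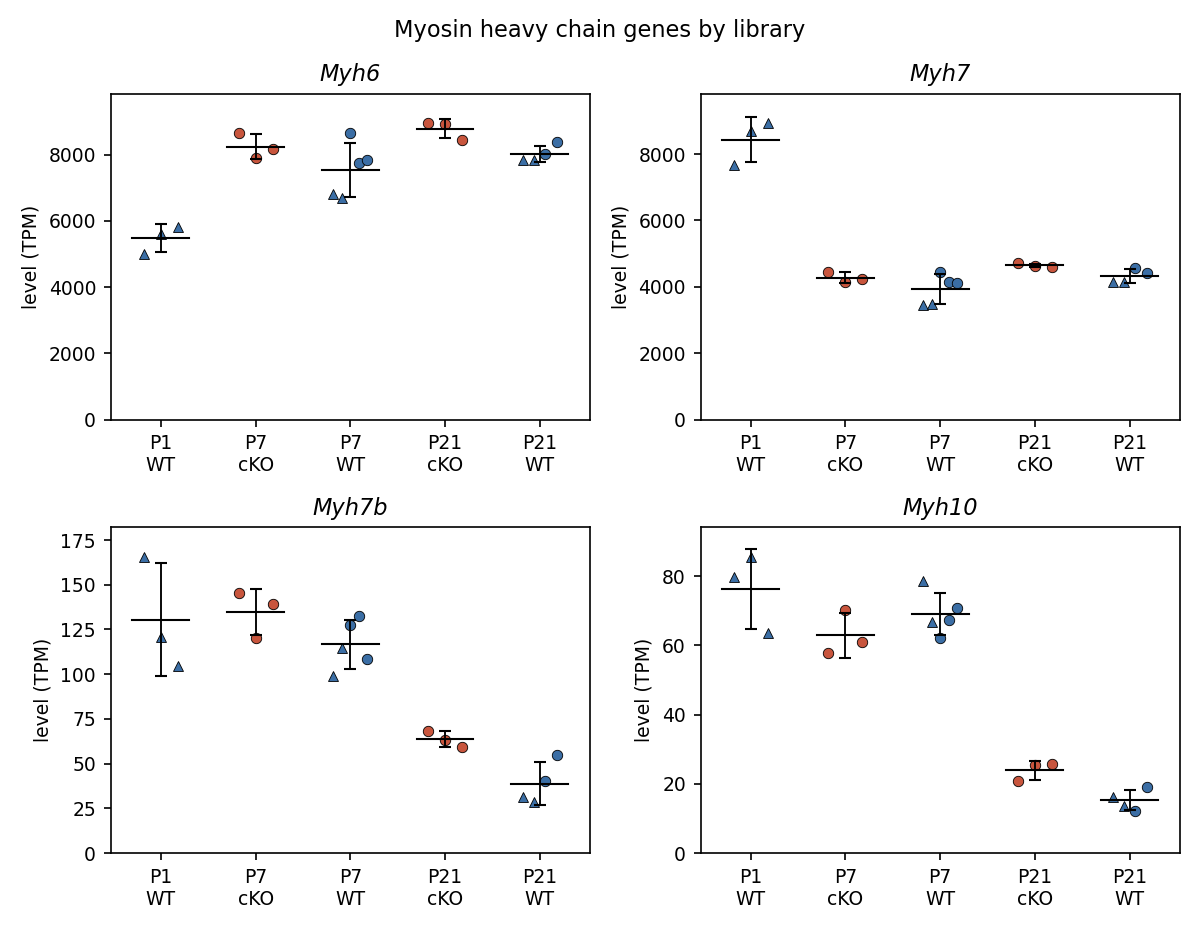
Levels of the 4 heavy chain genes in TPM (vertical axes, from 0) in each library, by age and genotype; circles are libraries with plain-number titles and triangles those with letter codes, lines and bars the mean and SD. Myh7 stands between 7676 and 8932 TPM in the P1 libraries and at 4707 TPM or less in all others, and Myh7b and Myh10 are lower at P21 than at P7, with P21 cKO above P21 WT.

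The balance of the heavy chains is their ratio within a library, which does not move with the scaling of that library. Myh7 made up 60.7% ± 0.129 of Myh6 plus Myh7 in P1 WT (SD, n = 3), 34.3% ± 0.462 in P7 WT (n = 5) and 35.0% ± 0.884 in P21 WT (n = 4). In cKO hearts the share was 34.2% ± 0.194 at P7 and 34.6% ± 0.554 at P21 (n = 3 each). The 3 P1 libraries were thus the ones with more Myh7 than Myh6, and the 15 later libraries lay between 33.7% and 36.3%.

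The share differed by -0.10 percentage points between P7 cKO and P7 WT (exact two-sided permutation test over libraries, p = 0.786) and by -0.37 between P21 cKO and P21 WT (exact p = 0.629; smallest p possible 0.0571). Between P7 WT and P1 WT it differed by -26.4 percentage points with no overlap (exact p = 0.0357, the smallest that 5 against 3 libraries allow; 0.171 after Benjamini-Hochberg adjustment over 6 comparisons). Between P21 WT and P1 WT it differed by -25.7 (exact p = 0.0571, again the smallest possible; adjusted 0.171). Within the letter-coded libraries these were -26.6 and -26.1 percentage points (exact p = 0.2 each, the smallest that 2 against 3 libraries allow). Between P21 and P7 the share differed by 0.71 in WT (exact p = 0.190) and by 0.44 in cKO (exact p = 0.3, where 0.1 is the smallest possible).

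The Myh7 to Myh6 ratio was 1.54 at P1 and lay between 0.509 and 0.570 in all 15 P7 and P21 libraries, a coefficient of variation of 2.80%. Over the same 15 libraries it was 11.1% for Myl2 to Myl3 and 21.4% for Myl2 to Myh6, values that include the change of these ratios between P7 and P21. Within single P7 and P21 groups it ran from 0.861% to 3.94% for Myh7 to Myh6. The same range was 0.524% to 7.48% for Myl2 to Myl3 and 5.22% to 12.9% for Myl2 to Myh6. Stretches shared by the 2 transcripts can pull their levels toward each other, and the part of shared reads in this ratio was not tested.

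**Figure D3:**
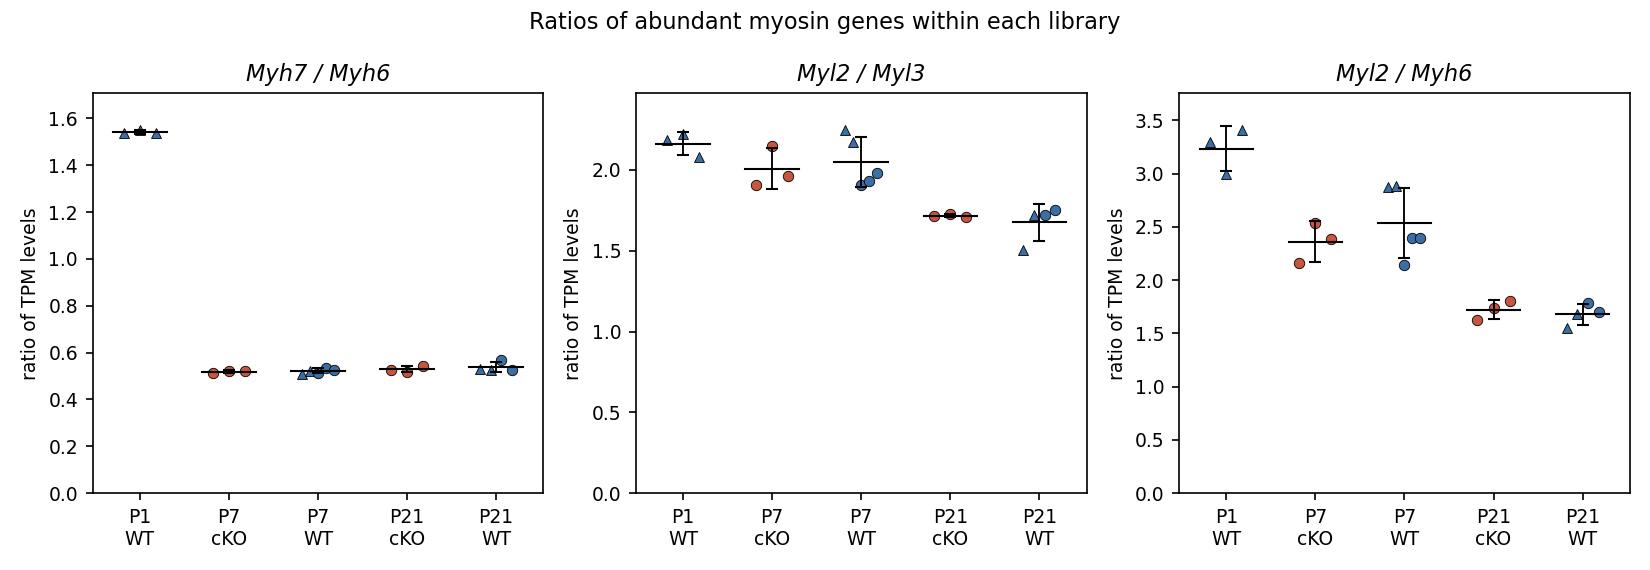
Ratio of TPM levels within each library (vertical axes, from 0) for Myh7 to Myh6, Myl2 to Myl3 and Myl2 to Myh6, with circles for plain-number and triangles for letter-coded titles and mean and SD per group. The Myh7 to Myh6 ratio lies near 1.54 at P1 and between 0.509 and 0.570 in every later library, while both ratios with Myl2 are lower at P21 than at P7.

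Mhrt, a long non-coding RNA transcribed from the opposite strand of Myh7 and known to act on cardiac chromatin (chr14:54968678-54974349, plus strand), was higher in WT at each later age, while Myh7 was lower at P7 than at P1 and slightly higher at P21 than at P7. The level of Mhrt in WT hearts was 27.8 ± 0.566 TPM at P1, 56.2 ± 7.24 TPM at P7 and 83.5 ± 5.68 TPM at P21. The change was 0.92 between P7 WT and P1 WT (limma adjusted p = 1.6e-05) and 0.58 between P21 WT and P7 WT (adjusted p = 9.34e-06; relative to the median gene 1.05). It was at 59.6 ± 3.71 TPM in P7 cKO and at 79.8 ± 6.46 TPM in P21 cKO, and neither difference from WT passed (limma adjusted p = 1 and 0.396). The strand use of the counting is not given, and reads of Mhrt and of overlapping Myh7 RNA cannot be told apart without it.

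Myh7b, a slow-type heavy chain whose gene hosts miR-499 (ENSMUSG00000074652; chr2:155611212-155634307), was far below both, and fell late. It was at 165.7, 120.9 and 104.6 TPM in P1 WT, at 99.2, 115, 127.5, 132.8 and 109 TPM in P7 WT and at 31.6, 28.5, 40.5 and 55.1 TPM in P21 WT. All P21 WT libraries lay below all P7 WT libraries, while P7 and P1 overlapped. The change between P21 WT and P7 WT was -1.56 ± 0.13 (SE; limma adjusted p = 6.11e-08; relative to the median gene -1.09), and between P21 cKO and P7 cKO it was -1.07 ± 0.16 (adjusted p = 6.91e-05; relative -0.83). In P21 WT against P1 WT it was -1.94 ± 0.17 (limma adjusted p = 6.66e-08; relative -1.46).

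The P21 cKO libraries held Myh7b at 68.4, 63.2 and 59.4 TPM against 31.6, 28.5, 40.5 and 55.1 TPM in P21 WT. The lowest cKO library stood just above the highest WT library, and both plain-number WT libraries were above the letter-coded ones. The change was 0.54 ± 0.17 (limma adjusted p = 0.0326; relative to the median gene 0.32). The call did not hold in limma after median-ratio scaling (0.28, adjusted p = 0.254), on quantile-normalized values (0.37), without mitochondrial-genome and haemoglobin genes (0.50), with no filter, or within the plain-number libraries (0.42, adjusted p = 0.0784), and passed in 11 of 18 fits with 1 library left out. At P7, Myh7b was at 145.3, 120.5 and 139 TPM in cKO, overlapping WT.

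The essential light chains wrap the neck of the motor head. Myl3, the ventricular and slow isoform (ENSMUSG00000059741; chr9:110741861-110769798), held nearly all of this pool at every age. It was at 8500 to 8994 TPM in P21 cKO against 7672 to 8314 TPM in P21 WT, and at 9342 to 9936 TPM in P7 cKO against 8699 to 9729 TPM in P7 WT. The P21 groups did not overlap, yet the change of 0.08 ± 0.08 did not pass (limma adjusted p = 0.430; relative to the median gene -0.13). In P21 WT against P7 WT, Myl3 was called lower by a change of -0.20 ± 0.06 (limma adjusted p = 0.00894), which lies 0.28 above the median gene, and after median-ratio scaling it was called higher instead (0.38, adjusted p = 0.00575). The call was lost without mitochondrial-genome and haemoglobin genes (-0.09) and with no filter.

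Myl4, the atrial and fetal essential light chain (ENSMUSG00000061086; chr11:104550663-104595753), fell steeply after P1. It was at 346.9, 671.8 and 273.5 TPM in P1 WT, at 79.1, 33.6, 70.3, 78.1 and 162 TPM in P7 WT and at 43.7, 58.7, 43.0 and 36.3 TPM in P21 WT. The P1 libraries were all above the others, with library 2 the highest, and P7 and P21 overlapped. The change between P7 WT and P1 WT was -2.59 ± 0.81 (limma adjusted p = 0.0267), a call lost without P1 WT library 2 (-2.22, adjusted p = 0.0990), P7 WT library 1 (-2.74, adjusted p = 0.0521) or P7 WT library 3 (-2.05, adjusted p = 0.126). It was also lost with no filter (limma adjusted p = 0.0653) and with the replicate block (-2.44, adjusted p = 0.0541). In P21 WT against P1 WT it was -3.29 ± 0.81 (limma adjusted p = 0.00206; relative to the median gene -2.81). Myl4 made up 5.09% of the summed essential light chains Myl1, Myl3 and Myl4 at P1, 0.895% at P7 and 0.562% at P21 in WT.

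Myl1, the fast skeletal essential light chain (ENSMUSG00000061816; chr1:66924295-66945404), was the only one of the 10 genes called lower in P21 cKO, and in WT it was higher at P21 than at P7. In WT hearts it was at 39.2, 53.9 and 31.2 TPM at P1, at 20.8, 13.8, 20.9, 15.1 and 20.98 TPM at P7 and at 44.6, 44.7, 40.4 and 40.9 TPM at P21. P7 WT was below both other ages in every library. Myl1 changed by -1.13 ± 0.29 between P7 WT and P1 WT (limma adjusted p = 0.00827), a call lost without P7 WT library 3 (-0.93, adjusted p = 0.0512), and by 1.20 ± 0.23 (log2) between P21 WT and P7 WT (adjusted p = 2.41e-04; relative to the median gene 1.67).

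At P21, Myl1 was at 9.46, 12.5 and 17.5 TPM in cKO, against 44.6, 44.7, 40.4 and 40.9 TPM in WT. Every cKO library lay well below every WT library. The change was -1.67 ± 0.29 (SE; limma adjusted p = 0.00152; relative to the median gene -1.89), and it passed in all 18 fits with 1 library left out (-1.88 to -1.47) and in all 9 other settings (-1.93 to -1.60), among them the plain-number libraries alone. At P7, the cKO libraries were at 12.5, 22.2 and 8.92 TPM and overlapped WT. The P21 effect minus the P7 effect was -1.28 ± 0.36 (limma adjusted p = 0.0454; relative to the median gene -1.52), which passed in 6 of 18 fits with 1 library left out (-1.56 to -0.95 over all 18) and in 5 of 9 other settings. In cKO the change between P21 and P7 was -0.08 ± 0.28 (limma adjusted p = 0.825; relative to the median gene 0.16).

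Of 20 skeletal muscle markers, Myl1 and Mylpf included, 11 were tested, and 2 were higher and 3 lower in P21 cKO, where 19.5% and 1.77% of all genes were. Myl1 is itself 1 of the 3 lower. Tnni2, fast skeletal troponin I, was at 0.73, 1.92 and 1.49 TPM in P21 cKO against 8.71, 6.89, 7.76 and 7.72 TPM in P21 WT. Tnni1, slow skeletal troponin I, was at 2.25, 5.79 and 4.74 TPM in P21 cKO against 1.18, 0.93, 0.49 and 2.64 TPM in P21 WT, and Mybpc2, fast myosin-binding protein C, was also among the genes called higher. The skeletal genes Myh4, Myh1, Myh2 and Tnnc2 were at 0.32 TPM or less in all P21 libraries of both genotypes. Summed without Myl1 and Mylpf, the list was at 1892 to 1925 TPM in P21 cKO and 2015 to 2306 TPM in P21 WT. The genes whose levels are given above hold little of this sum, so it says little about them and is no measure of skeletal muscle. The part of other muscle in the level of Myl1 was not tested.

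**Figure D4:**
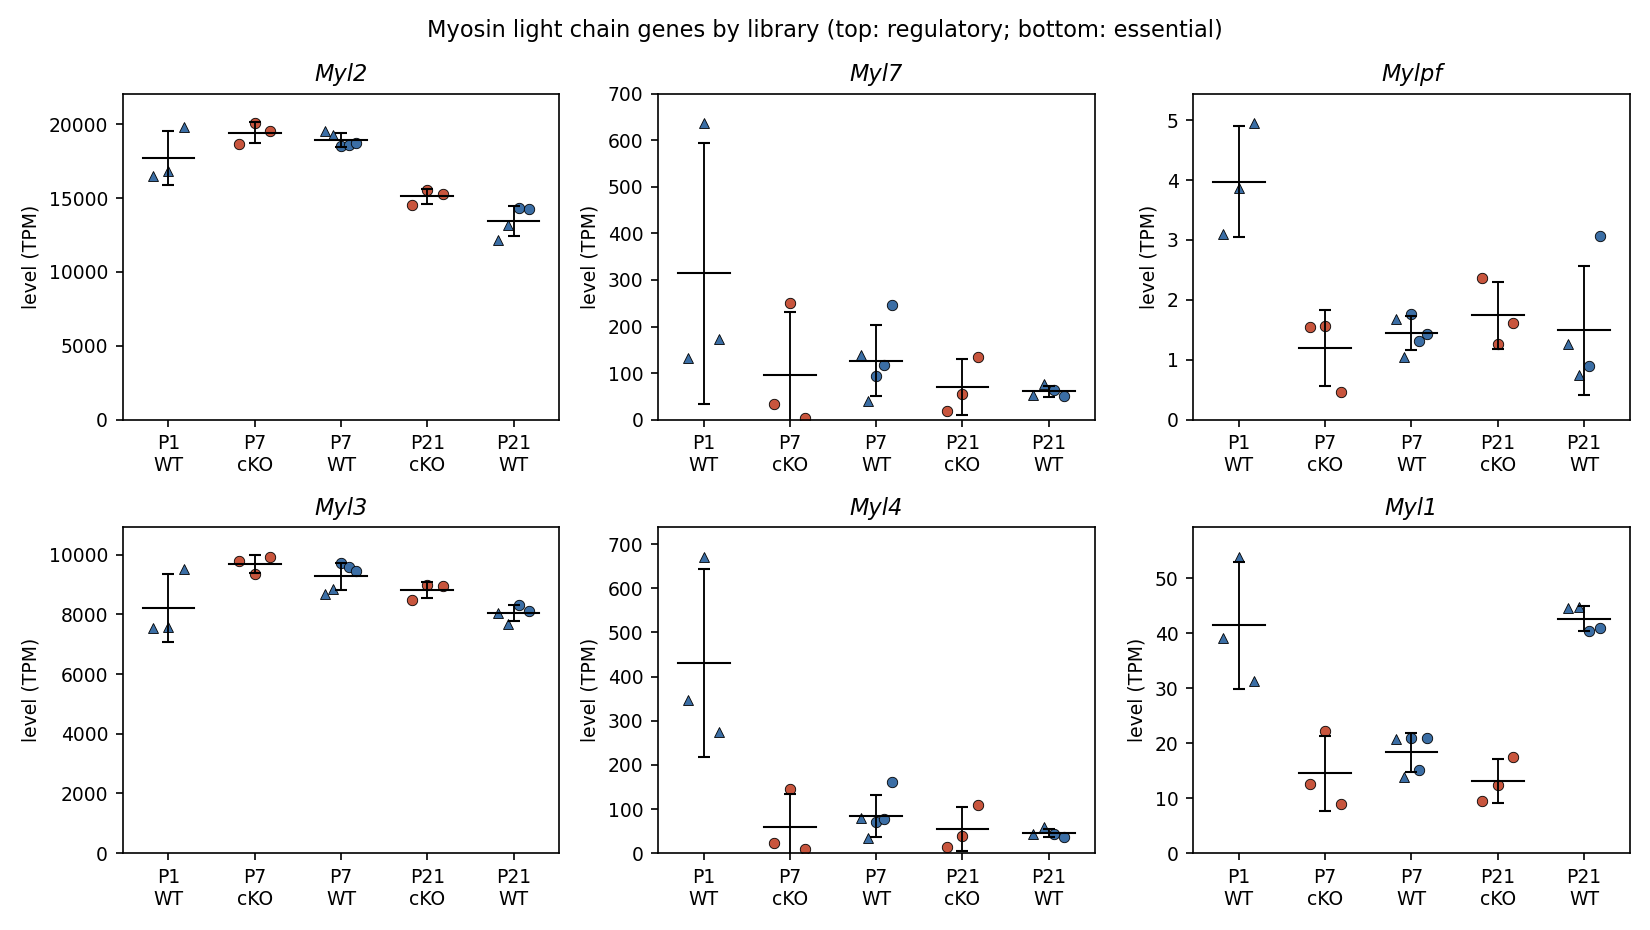
Levels of the 6 light chain genes in TPM (vertical axes, from 0) in each library by age and genotype; circles are libraries with plain-number titles and triangles those with letter codes, lines and bars the mean and SD. Myl1 lies at 17.5 TPM or less in P21 cKO and at 40.4 TPM or more in P21 WT, and Myl4 is highest in the 3 P1 libraries.

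The regulatory light chains are the ones that kinases phosphorylate. Myl2, the ventricular isoform (ENSMUSG00000013936; chr5:122100951-122113472), was the most abundant of the 10 genes. It was at 14564, 15514 and 15266 TPM in P21 cKO against 12130 to 14296 TPM in P21 WT, and at 18674, 20073 and 19512 TPM in P7 cKO against 18556 to 19551 TPM in P7 WT. The P21 cKO libraries lay above the WT libraries and the P7 groups overlapped. The P21 change of 0.15 ± 0.08 did not pass (limma adjusted p = 0.170; relative to the median gene -0.07). In P21 WT against P7 WT, Myl2 was called lower by a change of -0.49 ± 0.06 (limma adjusted p = 3.6e-06), which is -0.02 relative to the median gene and 0.08 after median-ratio scaling. In P21 WT against P1 WT it was -0.42 ± 0.08 (limma adjusted p = 1.72e-04; relative 0.06) and 0.15 after median-ratio scaling. In P21 cKO against P7 cKO the change was -0.36 ± 0.07 (limma adjusted p = 9.54e-04; relative -0.12), a call lost after median-ratio scaling (-0.08) and with no filter.

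Myl7, the atrial regulatory light chain (ENSMUSG00000020469; chr11:5896637-5898782), varied widely between libraries of 1 group. It was at 32.9, 251.6 and 2.55 TPM in P7 cKO against 138, 40.3, 93.1, 117 and 246.6 TPM in P7 WT. It was at 17.7, 55.6 and 135 TPM in P21 cKO against 52.1, 75.5, 64.3 and 51.7 TPM in P21 WT, and at 132, 637 and 174 TPM in P1 WT. The highest and the lowest P7 library were both cKO, the groups overlapped at P7 and at P21, and the changes of -1.98 ± 1.08 at P7 and -0.44 ± 1.16 at P21 did not pass (limma adjusted p = 1 and 0.806).

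Myl4 mostly moved with Myl7 from library to library. In P7 cKO Myl4 was at 23.6, 145.3 and 10.4 TPM, and in P21 cKO at 15.02, 38.2 and 110.2 TPM, in the same order as Myl7. The orders also matched within P7 WT, but differed within P1 WT and within P21 WT. The ratio of Myl7 to Myl4 averaged 0.654 in P1 WT and 1.46 in P7 WT, and ran from 0.246 to 1.73 in P7 cKO. The P7 and P21 groups of both genotypes overlapped, and neither Myl4 change passed (-1.27 ± 0.76 and -0.31 ± 0.81; limma adjusted p = 1 and 0.801). Sln and Mybphl had the same order in P7 cKO. They were chosen after their values were seen, from a list of 10 markers of atrial muscle outside the 10 genes. The order of the rest of that list in P7 cKO is not given here. Sln, sarcolipin, was at 0.93, 8.23 and 0 TPM in P7 cKO and at 1.67, 4.63 and 11.4 TPM in P21 cKO, against 2.61 to 5.58 TPM in P21 WT. Mybphl, a myosin-binding protein H-like gene of the atria, was at 0.58, 7.31 and 0 TPM in P7 cKO. Bmp10, an atrial growth factor, was at 0, 0 and 4.94 TPM in P21 cKO and listed at 0 in every P21 WT library.

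Myl1 varied in the same library order as Myl4 and Myl7 within P7 cKO, at 12.5, 22.2 and 8.92 TPM, and within P21 cKO, at 9.46, 12.5 and 17.5 TPM. As a description over the 18 libraries, deviations of Myl1 from its group means correlated at r = 0.92 with those of Myl4, at 0.90 with those of Myl7 and at 0.85 with those of Stard10, an atrial marker of the list. Between the P21 genotypes the groups overlapped for Myl4 and Myl7 and did not for Myl1. The part of atrial tissue in the level of Myl1 was not tested.

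Over the whole list of 10 atrial markers outside the 10 genes, 9 without Nppa, the summed level was 30.6 to 61.8 TPM in P21 cKO and 35.3 to 43.9 TPM in P21 WT. It was 36.7 to 66.3 TPM in P7 cKO, 48.6 to 68.6 TPM in P7 WT and 62.6 to 137 TPM in P1 WT. Nppa alone was at 8176 to 15241 TPM in P21 cKO against 170 to 384 TPM in P21 WT, and is a stress gene as well as an atrial one. Of the 12 listed, Myl4 and Myl7 included, 3 were higher and 1 lower in P21 cKO, where 19.5% and 1.77% of all genes were. The part of unequal atrial tissue between libraries in the levels of Myl4 and Myl7 was not tested.

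**Figure D5:**
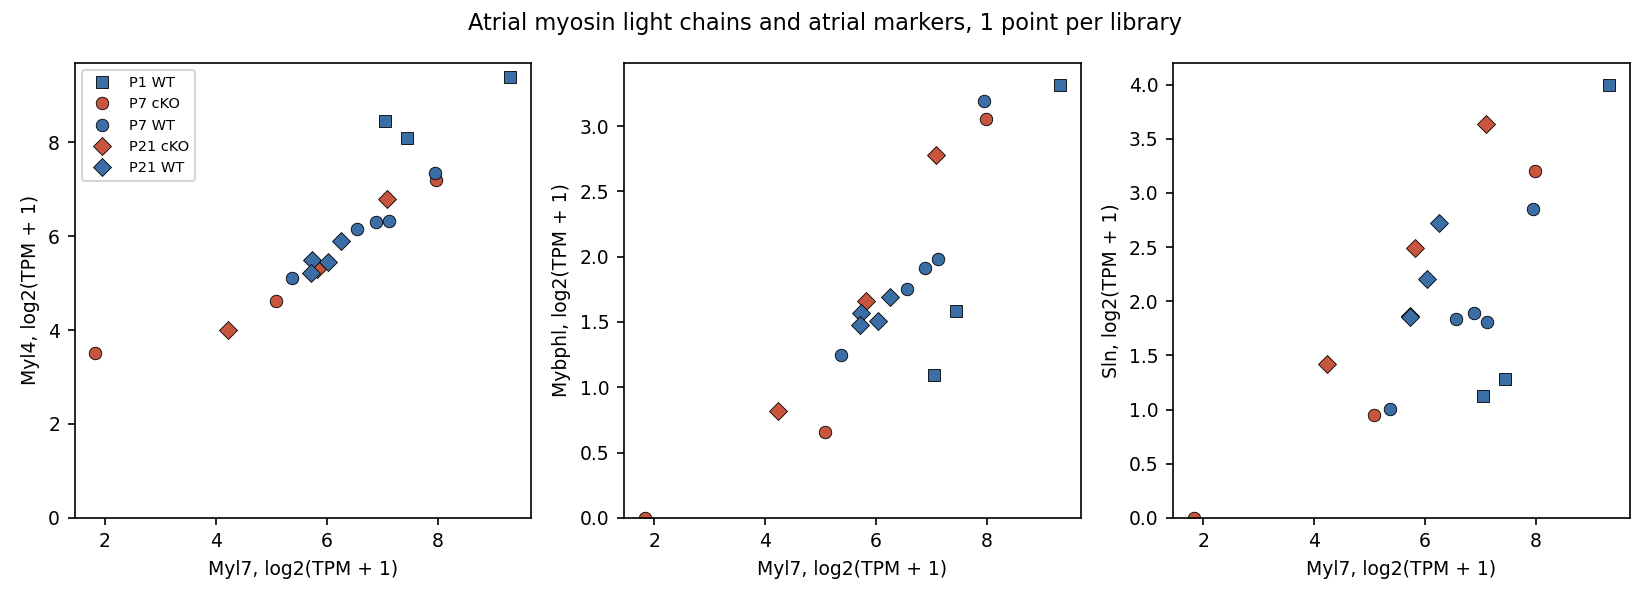
Level of Myl7 (horizontal axes) against Myl4, Mybphl and Sln (vertical axes), all as log2(TPM + 1), with 1 point per library, squares for P1, circles for P7 and diamonds for P21, red for cKO and blue for WT. Libraries with more Myl7 tend to have more of the other genes, and the P7 cKO library with 2.55 TPM of Myl7 has Mybphl and Sln at 0 TPM.

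The promoters of Myl7 and Myl4 are shown because their RNAs moved together. Each is the RefSeq window of 250 bases before to 50 bases after a start site on GRCm38.p6, 5′ to 3′ on the gene's strand, for Myl7 at chr11:5898733-5899032 (minus strand) and for Myl4 at chr11:104550413-104550712. Capitals mark M-CAT, TATAAA, MEF2 and SRF CArG motifs. M-CAT (CATTCC) is the site of TEAD factors and SRF CArG that of serum response factor, and all were searched on both strands, as were the nuclear receptor site (AGGTCA) and the E-box (CANNTG), which stay in lower case.
Myl7 promoter: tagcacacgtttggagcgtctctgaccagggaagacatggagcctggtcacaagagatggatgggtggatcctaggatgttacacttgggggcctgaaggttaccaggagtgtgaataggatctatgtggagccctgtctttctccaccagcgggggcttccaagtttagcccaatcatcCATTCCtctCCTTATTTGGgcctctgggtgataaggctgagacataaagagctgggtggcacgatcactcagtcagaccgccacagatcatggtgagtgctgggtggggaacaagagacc
Myl4 promoter: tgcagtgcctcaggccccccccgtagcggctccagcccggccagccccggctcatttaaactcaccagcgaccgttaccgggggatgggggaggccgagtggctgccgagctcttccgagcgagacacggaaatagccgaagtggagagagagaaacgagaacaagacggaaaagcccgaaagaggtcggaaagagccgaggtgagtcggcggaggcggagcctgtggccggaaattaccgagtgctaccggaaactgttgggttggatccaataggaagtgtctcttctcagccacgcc
The Myl7 window holds M-CAT at base -70 and SRF CArG at base -61 from the start, and 1 E-box, and the Myl4 window holds none of the 6 motifs in these letters. Over the 12 RefSeq promoters of the 10 genes, CATTCC occurred in 6, against 14.7% of 32851 promoters, and SRF CArG in 2, those of Myl3 and Myl7, against 1.63%. CANNTG occurred in 11 of 12 (72.3% of all), TATAAA in 3 (13.6%), AGGTCA in 2 (16.3%) and MEF2 in 0 (3.19%). These windows are not all separate: those of Myh7 overlap each other (chr14:54994577-54994876 and chr14:54994500-54994799). Both windows of Myl2 (chr5:122092474-122092773 and chr5:122092939-122093238) lie before the start of the gene as given above, chr5:122100951. No test of the motif counts was made. A match describes letters in a window, not a bound site.

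Mylpf, the fast skeletal regulatory light chain (ENSMUSG00000030672; chr7:127208890-127214298), was low throughout. It was at 3.10, 3.87 and 4.95 TPM in P1 WT, at 1.04 to 1.76 TPM in P7 WT and at 0.74 to 3.07 TPM in P21 WT. P1 lay above P7 in every library and above P21 in every library. The changes were -1.18 ± 0.28 between P7 WT and P1 WT (limma adjusted p = 0.00615) and -1.20 ± 0.28 between P21 WT and P1 WT (adjusted p = 0.00147; relative to the median gene -0.72). The cKO libraries were at 1.55, 1.57 and 0.47 TPM at P7 and at 2.36, 1.26 and 1.61 TPM at P21, and overlapped WT at both ages.

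Myh10, the heavy chain of non-muscle myosin IIB (ENSMUSG00000020900; chr11:68691559-68816632), fell between P7 and P21 in both genotypes. In WT it was at 79.7, 85.6 and 63.6 TPM at P1, at 78.5, 66.7, 62.2, 67.3 and 70.7 TPM at P7 and at 16.3, 13.8, 12.3 and 19.0 TPM at P21. P1 and P7 overlapped, and all P21 libraries were far below. The change between P21 WT and P7 WT was -2.12 ± 0.12 (limma adjusted p = 7.18e-10; relative to the median gene -1.65), and between P21 cKO and P7 cKO it was -1.36 ± 0.15 (adjusted p = 2.47e-06; relative -1.11). In P21 WT against P1 WT it was -2.22 ± 0.15 (limma adjusted p = 4.84e-09; relative -1.75).

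At P21, Myh10 was at 20.9, 25.4 and 25.7 TPM in cKO against 16.3, 13.8, 12.3 and 19.0 TPM in WT. No cKO library fell within the WT range. The change was 0.65 ± 0.15 (SE; limma adjusted p = 0.00867; relative to the median gene 0.43). It passed in all 9 other settings (0.40 to 0.68) and in 17 of 18 fits with 1 library left out, the exception being P21 WT library 57, the lowest (0.50, limma adjusted p = 0.0557). At P7, Myh10 was at 57.9, 70.3 and 60.8 TPM in cKO and overlapped WT. The P21 effect minus the P7 effect was 0.76 ± 0.19 (limma adjusted p = 0.0281; relative 0.52), which passed in 11 of 18 fits with 1 library left out and in 5 of 9 other settings. It was lost after median-ratio scaling (0.49), on quantile-normalized values (0.53), with no filter and within 1 title style (0.69).

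Markers of some other cell types moved beside Myh10, and those of others did not. At P21, 6 of 6 fibroblast markers and 4 of 5 endothelial markers were higher in cKO, where 19.5% of all genes were, with summed levels of 588 to 701 TPM in cKO against 386 to 504 TPM in WT and of 304 to 335 TPM in cKO against 189 to 257 TPM in WT. No marker of either list was at 0 in all libraries of a P21 group. Of 5 smooth muscle markers 0 passed between the P21 genotypes. Of 5 markers of ventricular heart muscle, 4 were higher in P21 cKO, and Myl2, the most abundant of them, did not pass. Of 8 general cardiomyocyte markers, 1 was higher and 0 lower, and the median of that list lay at -0.23 relative to that of all genes. Of 6 markers of proliferating cells 0 passed between the genotypes at P21. All 6 were lower in P21 than in P7 hearts of each genotype, where 64.4% of all genes were in WT and 39% in cKO. Their summed level was 5.09 to 12.8 TPM in P21 cKO against 203 to 238 TPM in P7 cKO. The part of these cells in the level of Myh10 was not tested.

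Of 16 other myosin genes, 8 were tested, and 4 were called higher and 0 lower in P21 cKO, where 19.5% and 1.77% of all genes were. Myh9, the heavy chain of non-muscle myosin IIA, averaged 40.7 ± 0.584 TPM in P21 cKO hearts against 27.1 ± 1.12 TPM in P21 WT hearts (limma adjusted p = 7.89e-05; relative to the median gene 0.33). Myl12a, a regulatory light chain of non-muscle myosin, averaged 818 ± 51.8 TPM in cKO against 479 ± 52.1 TPM in WT (relative 0.50), and Myl6 (0.20) and Myl12b (0.23) followed. Among these 8 genes 6 were lower and 1 higher in P21 WT than in P7 WT, where 64.4% and 8.1% of all genes were. Between the P21 genotypes the median of the list lay 0.09 above that of all genes.

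Of 20 genes that regulate or hold myosin, 17 were tested, and 7 were called higher and 0 lower in P21 cKO, where 19.5% and 1.77% of all genes were, with a list median 0.01 above that of all genes. Mybpc3, cardiac myosin-binding protein C, averaged 1268 ± 45.4 TPM in cKO hearts against 919 ± 74.8 TPM in WT hearts (limma adjusted p = 6.14e-04; relative to the median gene 0.22). Trim63, a muscle ubiquitin ligase that targets heavy chains, lay 0.22, Mybpc2 0.70 and Hspb7, a muscle heat shock protein, 0.23 above the median gene. With age, Trim54, a relative of Trim63, was at 65.1 ± 8.28 TPM in P21 WT and 16.3 ± 3.21 TPM in P7 WT (relative to the median gene 2.45), and Trim55 lay at -0.86 in the same comparison.

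Of 21 transcription regulators of cardiac myosin genes, all tested, 5 were called higher and 0 lower in P21 cKO, near the 19.5% and 1.77% of all genes, with a list median 0.04 above that of all genes. Irx4 and Hey2, ventricular regulators that hold down atrial genes, lay 0.29 and 0.56 above the median gene, Nr2f1, an atrial regulator, 0.61, and Purb, a repressor of Myh6, 0.11. From P1 to P7 in WT, 4 of the 21 were higher and 3 lower, where 13.8% and 14.7% of all genes were. Among them Hey2 had a log2 change of -2.46 (limma adjusted p = 1.56e-05) and Thrb, a thyroid hormone receptor gene, of 0.75 (adjusted p = 0.00158). Thyroid hormone receptors are known to drive Myh6 and repress Myh7 in rodent heart, and their part in the changes seen here was not tested.

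Over the 18 grouped libraries, the genes whose log2(TPM + 1) was most like that of a myosin gene differed among the isoforms. As descriptions over 18 libraries that share groups, Pearson r was 0.97 for Ogdh with Myh6, 0.93 for Arl3 with Myh7 and 0.97 for Git1 with Myh7b. Likewise r was 0.82 for Tmem38b with Myl1, 0.97 for Hnrnpa3 with Myl2, 0.90 for Hes1 with Myl3, 0.91 for Myl7 with Myl4 and 0.85 for Kcmf1 with Mylpf. Myl4 and Myl7 ranked first for each other in this ranking. Ranked instead by deviations from group means, Myl4 and Myl7 again came first for each other (r = 0.95), and so did Myh6 and Myh7 (r = 0.95). Summed, the 10 genes made up 3.76% ± 0.0713 of all TPM in P21 cKO and 3.40% ± 0.156 in P21 WT, and 4.20% ± 0.0145 in P7 cKO and 4.01% ± 0.132 in P7 WT.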

How the data were processed

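Per the labels' protocols, heart RNA was isolated with RNA iso Plus and a SMARTer mRNA-Seq kit gave the libraries. The authors deposited 1 table of TPM per gene and library, which sums to the same total in each library, and its columns of group means were used only to see which libraries they average (equal within 0.0001 TPM). TopHat2 2.0.14, Cufflinks 2.2.1 and mm10 are named in the submitters' processing notes with no roles; the tool that made TPM, the annotation and the strand use are not given in the sources used here. A further 3 columns of values that belong to no single sample here were not used.

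The 14812 genes that reached 1 TPM in 3 or more of the 18 grouped libraries were tested on log2(TPM + 1) with limma 3.58.1 (lmFit, then eBayes with a trend; R 4.3.3), with group and title style as terms and Benjamini-Hochberg adjustment over all genes within each comparison. Library 63 was left out. The share of Myh7 in Myh6 plus Myh7 was tested with exact two-sided permutation tests (scipy 1.17.1), adjusted over 6 comparisons. The fit was tested on simulated data. The 10 genes and all gene lists were chosen with earlier results of these data known. All 10 genes are described, with up to 4 genes of each list and comparison with the smallest limma p among those that passed; other marker genes named beside them were chosen after their values were seen. Genes most like each member were ranked by Pearson r among genes averaging at least 5 TPM. That ranking is not reported here for Myh10. As alternatives, values were scaled by median ratios, quantile-normalized or rescaled without mitochondrial-genome and haemoglobin genes. Other fits had 0.1 in place of 1 as the pseudocount, 5 TPM or nothing as the filter, no title style term, 1 title style alone, a replicate block, or 1 library left out. Shared sequence was counted in GENCODE M21 transcripts, and promoters and microRNAs came from RefSeq on GRCm38.p6.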

Additional observations from a re-analysis of the deposited data

Results flagged for a closer look

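In the P21 WT group, Myh7 made up 36.3% of Myh6 plus Myh7 in library 57, apart from the other 3 libraries: its gap to the nearest was 0.951 of the whole range of the group, above Dixon's limit of 0.829 for 4 samples. Chance alone puts about 1 in 20 groups past such a limit, and 30 groups were tested.

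For 2 genes the cKO effect at P21 differed from that at P7 by a test of the difference itself. The P21 effect minus the P7 effect was 0.76 (log2) for Myh10 (limma adjusted p = 0.0281) and -1.28 for Myl1 (limma adjusted p = 0.0454). Each call was lost in 4 of 9 other settings, and the Myh10 call passed in 11 and the Myl1 call in 6 of 18 fits with 1 library left out.

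Library 63, which entered no group, held Myl1 at 53.9 TPM, against 9.46 to 17.5 TPM in P21 cKO and 40.4 to 44.7 TPM in P21 WT.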

How the results depend on the processing

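Depth is unknown, groups hold 3 to 5 libraries, and exact tests of the Myh7 share allow no p below 0.0159. Of 1883 alternative values of single genes, 1752 kept their direction and side of the threshold, 56 lost and 17 gained a call, and 58 turned sign; the cause was not tested. Counts of called genes moved as follows. In P21 cKO vs P21 WT the 3 called genes were 1 to 3 with 1 library left out, 1 (Myl1) without P21 WT library 57. In P7 WT vs P1 WT 5 called genes were 3 without P7 WT library 3, and 3 to 7 over all libraries left out. In P21 cKO vs P7 cKO the 3 were 5 within 1 title style. For the P21 effect minus the P7 effect, 2 called genes were 1 with median-ratio scaling, quantile normalization, mitochondrial-genome and haemoglobin genes removed or the replicate block, 0 with no filter or within 1 title style, and 0 to 3 with 1 library left out.

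Same-numbered letter-coded libraries shared only a number: their deviations correlated between -0.10 and 0.07. The replicate block took the Myl4 change in P7 WT vs P1 WT to -2.44 (limma adjusted p = 0.0541).

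The Myh7 share difference ranged, with 1 library left out, from -0.24 to 0.057 percentage points in P7 cKO vs P7 WT (above 0 without P7 cKO library 69 or P7 WT library 76), from -0.67 to 0.076 in P21 cKO vs P21 WT (above 0 without P21 WT library 57) and from -26.5 to -26.2 in P7 WT vs P1 WT. In the last comparison fewer libraries allow no exact p under 0.05. Within 1 title style the difference of P7 WT and P1 WT was -26.6.

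After median-ratio scaling, the log2 change turned sign for Myh6 (-0.22), Myh7 (-0.26), Myl2 (-0.12), Myl3 (-0.18) and Mylpf (-0.071) in P21 cKO vs P21 WT, for Myl2 (0.082), Myl3 (0.38) and Mylpf (0.30) in P21 WT vs P7 WT, for Myl2 (0.15) and Myl3 (0.49) in P21 WT vs P1 WT, for Myl1 (0.18) and Myl3 (0.15) in P21 cKO vs P7 cKO, and for Myl2 (-0.16) and Myl3 (-0.23) in the P21 effect minus the P7 effect. With mitochondrial-genome and haemoglobin genes removed, the log2 change turned sign for Myh6 (-0.0039) and Myh7 (-0.047) in P21 cKO vs P21 WT, for Mylpf (0.029) in P21 WT vs P7 WT, for Myl3 (0.080) in P21 WT vs P1 WT. After quantile normalization, the log2 change turned sign for Myh7 (-0.17) and Mylpf (-0.14) in P21 cKO vs P21 WT, for Myl2 (-0.12) in P7 WT vs P1 WT, for Myh6 (-0.10) and Mylpf (0.36) in P21 WT vs P7 WT, for Myh6 (-0.0014) in P21 WT vs P1 WT, for Myh6 (-0.13), Myh7 (-0.15) and Myl1 (0.20) in P21 cKO vs P7 cKO. Within 1 title style, the log2 change turned sign for Myl4 (0.023) and Mylpf (-0.039) in P21 cKO vs P21 WT, for Mylpf (0.16) in P21 WT vs P7 WT, for Myh6 (0.068) and Myh7 (0.036) in the P21 effect minus the P7 effect. With the replicate block, the log2 change turned sign for Myh6 (0.013) in the P21 effect minus the P7 effect. With 1 library left out, it turned sign within the range given for Myh7b (-0.041 to 0.13) and Myl2 (-0.0063 to 0.046) in P7 cKO vs P7 WT, for Myh6 (-0.0019 to 0.073), Myh7 (-0.039 to 0.015), Myl4 (-1.03 to 0.37), Myl7 (-1.12 to 0.31) and Mylpf (-0.18 to 0.44) in P21 cKO vs P21 WT, for Mylpf (-0.30 to 0.17) in P21 WT vs P7 WT. It also did so for Myl1 (-0.11 to 0.27) and Myl3 (-0.13 to 0.039) in P21 WT vs P1 WT, for Myl1 (-0.36 to 0.25), Myl4 (-0.54 to 1.30) and Myl7 (-0.82 to 2.26) in P21 cKO vs P7 cKO, for Myh6 (-0.056 to 0.015) and Myl7 (-0.020 to 3.06) in the P21 effect minus the P7 effect.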

Other observations

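In library 63, the P21 library whose labels disagree, Myh6 was at 7739 TPM, Myh7 at 4053 TPM, Myh7b at 40.3 TPM and Myh10 at 18.2 TPM. Its light chains were at 12902 TPM for Myl2, 7836 TPM for Myl3, 42.0 TPM for Myl4 and 34.9 TPM for Myl7. The authors' deposited column of P21 WT means equals the mean of libraries 57, 60 and 63 within 0.0001 TPM, and their column of P21 cKO means holds libraries 55, 59 and 64.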
